A study of Mus musculus with 4 samples.

Results

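Muscle satellite cells are the resident stem cells of skeletal muscle fibres, and they were picked out of 4 single-cell libraries by the detection of their own genes. They were chosen by detection in the counts: a cell was taken when it had at least 3 of the 6 genes Pax7, Myf5, Chodl, Cdh15, Calcr and Myod1 with a UMI (unique molecular identifier, 1 counted mRNA molecule), among barcodes that held over 200 genes and under 10% of UMIs from mitochondrial genes. This left 167 satellite cells among 18153 cells and 21415 barcodes. The choice used measured values, so the 6 genes and every contrast of these cells with the rest are given as a description, with no test.

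The cells came from the tibialis anterior and gastrocnemius of 2-month-old male mice, 4 mice pooled for each genotype, digested with dispase, collagenase and hyaluronidase and prepared in 1 batch. All mice carried the S100GFPtg reporter, in which the S100B promoter drives EGFP so that Schwann cells fluoresce, and the 2 genotypes were S100GFPtg (labelled WT) and S100GFPtg Sod1-/- (labelled Sod1KO, lacking the copper and zinc superoxide dismutase). Live cells excluding propidium iodide were sorted as GFP+ or GFP-, and each genotype and sort gave 1 library. With 1 library per group no difference has a replicate check. All intervals below are exact 95% intervals that cover counting error only, and groups are called by their labels, since the UMIs of Sod1 do not separate the genotypes.

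Satellite cells lie between the fibre membrane and the basal lamina and stay out of the cell cycle in resting muscle. Pax7 marks them in this state. On activation they express Myod1, divide, and either return to quiescence or go on through Myog to differentiate and fuse. Notch signalling, the calcitonin receptor and the laminin and collagen niche are known to hold them quiescent.

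Values are given throughout in the order WT GFP+, Sod1KO GFP+, WT GFP-, Sod1KO GFP-, and the libraries held 81320146, 105954116, 21959719 and 101410418 UMIs. Between 1 and 13 barcodes were shared by a pair of libraries, and none of them belonged to a satellite cell. The satellite cells carried 811605, 985797, 243076 and 765764 UMIs, with medians of 14336, 11931.5, 13903.5 and 13540 UMIs a cell. Levels are given as CPM, counts per 1000000, the UMIs of a gene over those of all genes in the satellite cells of a library. Reads start at the 3′ end of transcripts, so CPM counts molecules with no scaling by transcript length. Ratios were formed only where both libraries held at least 20 satellite cells, which leaves out every ratio with the 14 cells of WT GFP-.

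Satellite cells were a similar small share of every library. In the GFP+ sort they were 42 of 4767 WT cells (0.881%, 0.636 to 1.19%) and 66 of 6291 Sod1KO cells (1.05%, 0.812 to 1.33%). In the GFP- sort they were 14 of 1665 WT cells (0.841%, 0.460 to 1.41%) and 45 of 5430 Sod1KO cells (0.829%, 0.605 to 1.11%). The 4 intervals overlap, but they cover counting error only. With 1 library per group they cannot show whether the share differs between genotypes or between sorts. The shares are shares of sorted cells and not of the muscle. Because the choice needs detected genes it follows depth. With every cell thinned to 2000 UMIs, and shallower cells left out, the shares were 0.338, 0.470, 0.617 and 0.295%.

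The cells near the limit of the choice were few. Of all cells, 17102 had none of the 6 genes, 869 had 1, 15 had 2, 18 had 3, 42 had 4, 82 had 5 and 25 had all 6. Pax7 was detected in 4 of the 15 cells with 2 of the genes and in 17 of the 18 cells with 3. It is 1 of the genes counted, so this rise follows from the choice and is no check of it. The growth factor receptor gene Fgfr4 was detected in 2 of those 15 cells and in 14 of those 18. The cells just outside were deeper, with a median of 18929 UMIs against 8863 just inside.

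A part of the satellite cells also carried markers of other cells. Of the 167 cells, 44 held at least 2 UMIs of each of 3 or more markers of another class, namely 12 of 42, 19 of 66, 3 of 14 and 10 of 45. Mesenchymal markers were found in 32 of them, endothelial in 14, mural in 12, myelinating Schwann in 10, mature fibre in 7, nonmyelinating Schwann in 6, erythroid in 4, macrophage in 2, tenocyte in 1 and perineurial in 0, and 22 cells held more than 1 class. A doublet score called 7 of the 167 cells. Values without the 44 cells are therefore given beside the results, as those of the 123 unmixed cells. The limit is a number of UMIs, so deeper cells meet it more easily, and unmixed cells are not free of such markers. Mesenchymal markers still summed to 864, 765, 1278 and 958 CPM in the unmixed cells of the 4 libraries.

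Single cells weighed heavily on the sums of each library. The largest satellite cell, in Sod1KO GFP-, had 157012 UMIs, 20.5% of the satellite cell UMIs of that library, with 0.0446% mitochondrial UMIs, 13.6% of its UMIs from mature fibre genes and 3 of the 6 choosing genes. The largest in Sod1KO GFP+ had 111958 UMIs, 11.4% of its library's sum, and held tenocyte, Schwann, mural and mesenchymal markers together. The largest in WT GFP- had 45351 UMIs, 18.7% of its library's sum, with endothelial, mural and mesenchymal markers. The largest in WT GFP+ had 71204 UMIs, 8.77% of its sum.

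The 6 choosing genes were all found in the satellite cells of every library. In RefSeq on GRCm38.p6, the build that the labels give as mm10, Pax7 lies at chr4:139737059-139833530. It encodes the paired-box transcription factor of satellite cells and stood at 407, 386, 502 and 266 CPM, with a UMI in 42, 66, 14 and 44 cells. Myf5 (chr10:107482908-107486927), a myogenic regulatory factor already transcribed in quiescent cells, stood at 155, 166, 206 and 169.8 CPM. Calcr (chr6:3685678-3764713), the calcitonin receptor, stood at 166, 259, 247 and 197 CPM. Myf5 thus sat in a narrow range, and Calcr was lowest in WT GFP+.

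Cdh15 (chr8:122848374-122867397) encodes M-cadherin, which joins satellite cells to their fibre, and stood at 111, 129.8, 139.9 and 119 CPM. Myod1 (chr7:46376474-46379092), the factor of activated myoblasts, was the lowest of the 6 at 20.9, 37.5, 98.7 and 22.2 CPM, with a UMI in 10, 19, 6 and 7 cells. Outside the satellite cells these genes were nearly absent: Pax7 had a UMI in 3 of 4725, 5 of 6225, 0 of 1651 and 1 of 5385 other cells.

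Chodl (chr16:78930841-78951736), which encodes the membrane lectin chondrolectin, was the exception. It stood at 525, 605, 901 and 392 CPM in satellite cells, and was detected in 210, 421, 29 and 171 other cells. Other cells with tenocyte markers held 90.9, 92.8, 49.6 and 77.0% of all Chodl UMIs of their libraries, at 229, 223, 179 and 117 CPM. In the remaining other cells Chodl was at 1.40, 1.00, 1.03 and 1.59 CPM. Of the 869 cells with 1 choosing gene, 818 had Chodl. Chodl alone would thus not separate satellite cells from cells with tenocyte markers.

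**Figure D1:**
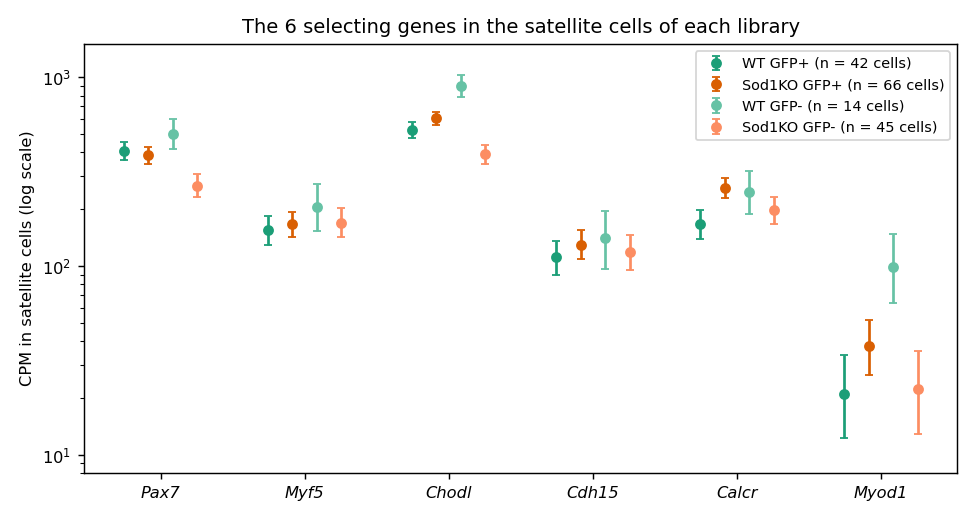
CPM (y axis, log scale) of the 6 choosing genes in the satellite cells of the 4 libraries, with exact 95% Poisson intervals. Pax7 lies between 266 and 502 CPM in every library, and Myod1 is the lowest gene, between 20.9 and 98.7 CPM.

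The label of satellite cells was checked against genes that took no part in the choice. Vcam1, an adhesion molecule of these cells, was detected in 36, 53, 14 and 33 cells and stood at 196, 193, 230.4 and 124 CPM, against 16.5, 20.3, 19.5 and 19.2 CPM in other cells. Des, the muscle intermediate filament desmin, was detected in 42, 59, 14 and 43 cells. Itga7, a laminin-binding integrin often used to isolate such cells, was detected in fewer, 26, 32, 6 and 23 cells. It stood at 75.2, 66.95, 57.6 and 43.1 CPM against 40.7, 26.5, 57.2 and 41.98 CPM in other cells, so it was higher in satellite cells of the GFP+ sort and about level in the GFP- sort. Sdc4, a syndecan of satellite cells, stood at 1055, 818, 1469 and 912 CPM against 349, 261, 50.8 and 73.8 CPM in other cells. Vcam1, Des and Sdc4 were thus higher in satellite cells of all 4 libraries, while Itga7 separated them less. Other genes of the same list did not separate them: Sdc3, a further syndecan, stood lower in satellite cells of every library, at 36.96, 30.4, 24.7 and 20.9 CPM against 60.5, 61.6, 83.9 and 61.3 CPM in other cells, and Sox8 was found in 0, 3, 1 and 7 cells.

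The 20 genes of highest ratio over the other cells, outside the choosing genes and by a mean over the 3 libraries with at least 20 satellite cells, had mean log2 ratios between 12.39 and 6.32. Secreted proteins were among them. Chrdl2, a chordin-like BMP antagonist, led at 107, 131, 78.2 and 109.7 CPM against 0.0129, 0.0700, 0 and 0.0110 CPM in other cells. Erfe, the hormone erythroferrone that acts on hepcidin, stood at 99.8, 114, 82.3 and 109.7 CPM against 0.0518, 0.260, 0.0483 and 0.0661 CPM. Gal, the neuropeptide galanin, was the most abundant of the secreted ones at 525, 446, 728 and 675 CPM, and was found in 25, 44, 9 and 28 cells. Galanin mRNA was thus not detected in a large part of the cells at these depths. Edn3, endothelin 3, stood at 138, 128, 222 and 107 CPM. Col19a1, a collagen of basement membrane zones, stood at 199.6, 217, 300.3 and 182 CPM.

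A pair of heparan sulfate 6-O-sulfotransferases, which modify the sugar chains that bind growth factors, was in the same set. Hs6st3 stood at 568, 494, 514 and 234 CPM against 1.29, 2.19, 0.676 and 0.562 CPM in other cells, and Hs6st2 at 264, 304, 160.4 and 239 CPM against 0.907, 3.06, 0.580 and 2.64 CPM. Fgfr4, a fibroblast growth factor receptor, stood at 179, 189, 234 and 201 CPM against 1.89, 2.69, 0.435 and 1.32 CPM. Hs6st3 was lowest in Sod1KO GFP-, and it was lowest there in unmixed cells too, at 310.5 CPM.

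Among transcription regulators, Vgll2, a muscle cofactor of TEAD factors, stood at 77.6, 55.8, 119 and 80.97 CPM. In Sod1KO GFP- 25 of its 62 UMIs came from 1 cell. Muscle structure and synapse genes were present too. Mybpc1, slow myosin-binding protein C, stood at 191, 121, 94.6 and 294 CPM, and 152 of its 225 UMIs in Sod1KO GFP- came from 1 cell. In the unmixed cells of that library it stood at 153 CPM. Chrna1, the alpha subunit of the muscle acetylcholine receptor, stood at 55.4, 52.7, 94.6 and 47.01 CPM. Actn3, the fast-fibre alpha-actinin, stood at 49.3, 57.8, 28.8 and 509 CPM, and 346 of its 390 UMIs in Sod1KO GFP- came from 1 cell. It stood at 74.04 CPM in the unmixed cells of that library, but Actn3 is itself among the markers that define mixed cells. Asb5, an ankyrin repeat protein of muscle, stood at 719.6, 464, 691 and 491 CPM, and Pde1c, a calcium-dependent phosphodiesterase, at 392, 440.2, 272 and 289.9 CPM.

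Others of the 20 were Fndc3c1, Nol4, Gm26834, Gm13703 and Traf3ip3, each between 16.5 and 86.4 CPM in satellite cells of the 4 libraries.

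**Figure D2:**
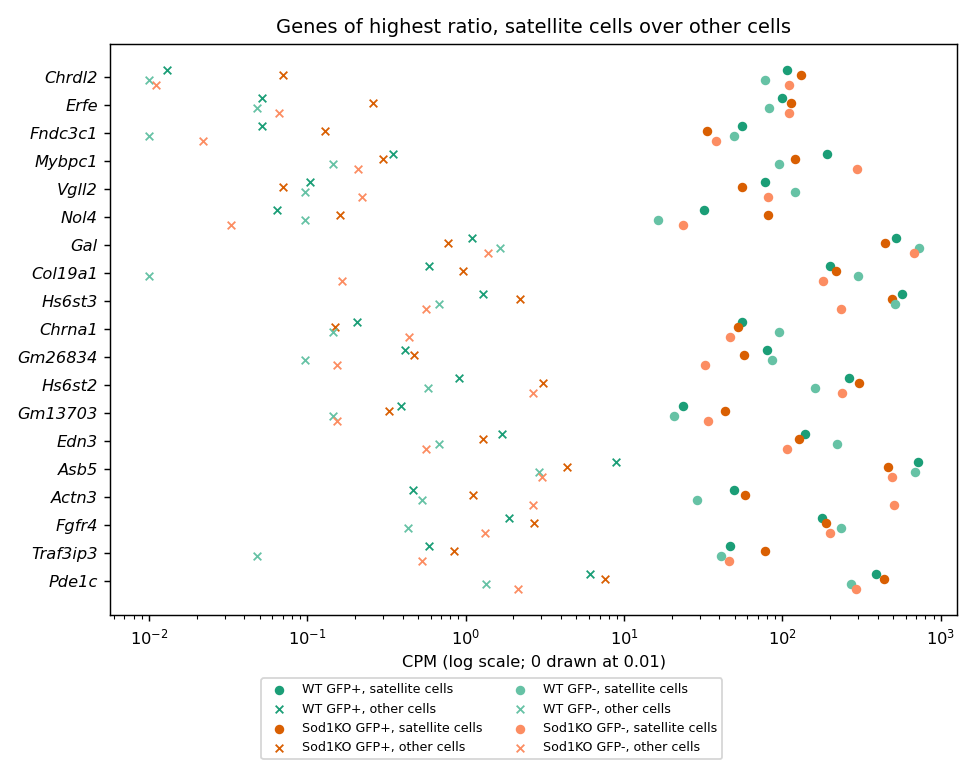
CPM (x axis, log scale) of genes from the 20 of highest ratio in satellite cells (circles) and in all other cells (crosses) of each library, with 0 drawn at 0.01. For every gene shown the circles lie right of the crosses of the same library.

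Myog and mitotic genes were detected in few satellite cells. Myog, the factor that starts differentiation, had a UMI in 0 of 42, 0 of 66, 0 of 14 and 1 of 45 cells. A limit of 3 counts puts the zeros at shares of up to 7.14, 4.55 and 21.4% of cells with a UMI, and the upper bounds of the exact 95% intervals are 8.41, 5.44 and 23.2%; neither limits the share of cells that express Myog. At least 3 of 8 mitotic genes (Mki67, Top2a, Cdk1, Ccnb1, Ccnb2, Ccna2, Birc5 and Cenpf) were detected in 2, 2, 0 and 0 cells, 2.40% of all 167 (0.656 to 6.02%), and 2 of those 4 cells were mixed. Mymk, the fusion protein myomaker, was found in 1, 0, 0 and 1 cells. The counts are too low to compare the libraries.

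At least 2 of 13 commitment and fusion genes were detected in 110 of 167 cells (65.9%, 58.1 to 73.0%), and in 21 of 166 (12.7%, 8.004 to 18.7%) after thinning to 2000 UMIs. The share was 71.4, 63.6, 71.4 and 62.2% in the 4 libraries, with overlapping intervals. The list was led by genes that are not specific to differentiation. Cdkn1a, the p21 cell cycle inhibitor, stood at 240.3, 164, 243 and 175 CPM, Mef2a, a muscle transcription factor, at 142, 129, 202 and 163 CPM, and Tnnt1, slow troponin T, at 61.6, 55.8, 107 and 43.1 CPM. Mef2c, a related factor also made by endothelial cells, stood at 76.4, 38.5, 57.6 and 221 CPM, and 145 of its 169 UMIs in Sod1KO GFP- came from 1 cell.

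Pax7 and Myf5 were found together in 141 of 167 cells, and Pax7 without Myf5 in 25 (14.97%, 9.93 to 21.3%). The latter were 6 of 42, 15 of 66, 0 of 14 and 4 of 45 cells. After thinning to 2000 UMIs they were 18 of 42, 26 of 65, 5 of 14 and 10 of 45, so the share of Pax7 cells without Myf5 depended on depth and gives no count of Myf5-negative cells.

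Clustering of the 167 cells gave 3 groups, each drawn from all libraries. The first had 78 cells (24, 28, 7 and 19), 12 of them mixed, and was led by 5330439A09Rik, Gm42836, Gm6225, Gm16833 and Spsb1. Among its leading genes, Asb5 stood at 1101 CPM, with a log2 ratio of 2.16 over the other satellite cells, and Arhgap42, a GTPase-activating protein, at 458 CPM. The second had 63 cells (11, 28, 4 and 20), 7 of them mixed, and was led by Mgarp, Tac4 and Akr7a5, none above 100 CPM. Log2 ratios of its leading genes were between 1.17 and 1.94, so it was set apart by little. The third had 26 cells (7, 10, 3 and 6), of which 25 were mixed, with a median of 28551 UMIs and the leading genes Cpm, Flt1, Ly6a, Ldb2 and Sult1a1. Flt1 is an endothelial and Ly6a a mesenchymal and endothelial gene. The clusters were built from these genes, so their differences are a description.

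Of the quiescence regulators, 4 were found in most satellite cells. Gas1, a growth arrest protein, stood at 598, 707, 559.5 and 492 CPM and was found in 40, 59, 12 and 39 cells. Peg3 stood at 473, 492, 629 and 410.1 CPM, and Tenm4, a teneurin, at 340.1, 264, 251 and 264 CPM against 15.2, 17.6, 1.45 and 7.57 CPM in other cells. Spry1, an inhibitor of receptor tyrosine kinase signalling needed for return to quiescence, stood at 175, 221, 259 and 179 CPM. Each of these 4 genes was found in more than 3 in 4 satellite cells of every library. Others of the list were found in fewer, with Foxo1, a forkhead factor, in 28, 42, 12 and 27 cells, and Tsc1, a brake on mTORC1, in 11, 13, 2 and 6 cells.

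Of the Notch pathway, the receptors Notch3, Notch1 and Notch2 and the targets Heyl, Hes1 and Hey1 were measured. Notch3 was the highest at 211, 239, 383 and 196 CPM. Heyl, the Notch target typical of quiescent satellite cells, stood at 149, 192, 177 and 157 CPM against 30.7, 23.03, 72.7 and 42.4 CPM in other cells. Hes1 stood at 65.3, 102, 139.9 and 69.2 CPM and was higher in other cells, at 339, 209.6, 495 and 316 CPM. The ligand genes were low, with Jag1 at 44.4, 51.7, 57.6 and 54.8 CPM and Dll4 in 3, 2, 2 and 6 cells.

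Niche genes included receptors and matrix made by the cells themselves. Dag1, dystroglycan, stood at 1348, 935, 1189 and 744 CPM against 469.6, 382, 159 and 133 CPM in other cells, and Lama2, the laminin chain of the muscle basal lamina, at 819, 657, 543 and 560.2 CPM. Sparc, a matrix glycoprotein, was the most abundant of the list at 1901, 2902, 1683 and 1333 CPM, and was higher still in other cells at 13163, 16559, 4957 and 8061 CPM. Col4a1, a basement membrane collagen chain, stood at 556, 515, 794 and 397 CPM. Among growth factor receptors, Egfr stood at 388, 428, 317 and 247 CPM and Tgfbr3, the co-receptor betaglycan, at 302, 435, 243 and 440.1 CPM. Fgfr1 stood at 376, 393, 559.5 and 360.4 CPM and Met, the receptor of hepatocyte growth factor, at only 38.2, 60.9, 24.7 and 45.7 CPM.

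Immediate early genes were among the most abundant genes measured. Fos stood at 3469.7, 4724, 3760.1 and 3728 CPM, Jund at 3542, 2402, 5476 and 2531 CPM and Egr1 at 3143, 3292, 4344 and 2003 CPM. In other cells Fos stood at 3899, 3023, 2907 and 2289 CPM and Jund at 1482, 1254, 1944 and 1404 CPM. These transcription factor genes are induced within minutes of stimulation, and enzymatic digestion of muscle is a known stimulus. Its part in these levels was not tested.

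The genotype comparison asked how satellite cells differ where Sod1 is lacking and neuromuscular junctions are known to be unstable. Sod1 itself stood at 102, 108, 144 and 131 CPM, with a log2 ratio of 0.07 (-0.36 to 0.50) in GFP+ satellite cells. Sod1 UMIs were thus not lower in the libraries labelled Sod1KO. The tags lie at the 3′ end, a deletion elsewhere in the gene can leave them, and no source used here says which part was deleted, so they check nothing about the genotype.

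In GFP+ satellite cells, 42 WT against 66 Sod1KO, few genes differed by size. Of 5444 genes with at least 50 UMIs over both libraries, 139 (2.55%) were more than 2-fold higher in Sod1KO and 229 (4.21%) more than 2-fold lower, 6.76% in all, with a median log2 ratio of -0.11. Scaled by the median of ratios, which moves that median to 0, the split was 174 higher and 183 lower. In the unmixed cells, 30 against 47, 59 of 2836 genes were higher and 66 lower, of which 13 and 17 were also past 2-fold with all cells. These counts describe 2 libraries and hold no test.

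The naming rule let no cell hold over 20% of a gene's UMIs in either GFP+ library, and set no such limit in GFP-. Among genes that met it, the highest ratio was that of Pde10a, a phosphodiesterase that breaks down cAMP and cGMP. It stood at 375, 1096, 419.6 and 1111 CPM in satellite cells, so both Sod1KO libraries were above both WT libraries. In GFP+ its log2 ratio was 1.55 (1.36 to 1.74), and 1.29 in unmixed cells. The other cells moved in the same direction, with log2 ratios of 1.83 in GFP+ and 1.00 in GFP-, at a lower level of 34.9, 125, 24.01 and 47.9 CPM.

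Of the other genes of the 10 highest ratios, Hbegf, a ligand of the EGF receptor, stood at 28.3, 72.02, 61.7 and 119 CPM, a log2 ratio of 1.35 (0.65 to 2.09) in GFP+, and Bcl6, a transcriptional repressor, at 51.7, 115, 45.3 and 80.97 CPM, a ratio of 1.15 (0.62 to 1.69). In other cells the same ratios were 0.10 and -0.09 in GFP+, and 0.27 and 0.63 in GFP-. Hbegf was higher in the other GFP+ cells than in satellite cells, at 171 CPM in WT and 184 CPM in Sod1KO. Btrc, the substrate receptor of an SCF ubiquitin ligase, had a ratio of 1.37 (0.48 to 2.35). Smurf1, a ubiquitin ligase of BMP and TGF-beta signalling, had 1.24 (0.40 to 2.16), and Trim35, of the tripartite motif ligases, 1.23 (0.50 to 2.03). With all cells, both Sod1KO libraries were above the WT library of the same sort for each of these 5 genes. In WT GFP- the order rests on only 2 UMIs of Btrc and 4 of Smurf1. In Sod1KO GFP- 1 cell held 36 of 91 Hbegf UMIs, 1 held 43 of 78 Trim35 UMIs and 1 held 24 of 62 Bcl6 UMIs. In the unmixed GFP- cells the order held for Hbegf, Btrc and Smurf1, with Btrc and Smurf1 found in 1 and 2 WT cells. Trim35 stood there at 102 CPM in WT and 59.7 CPM in Sod1KO, and Bcl6 at 61.2 and 59.7 CPM.

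Gm26887 had a log2 ratio of 1.34 (0.83 to 1.88), Tmem87b 0.99 (0.14 to 1.90) and Pde6d 0.98 (0.08 to 1.96). Gm42418, a locus that overlaps ribosomal RNA sequence, took 13859, 31841, 34808 and 35557 CPM. Its ratio was 1.20 (1.17 to 1.23) in GFP+ satellite cells and 0.85 in other GFP+ cells. In GFP- satellite cells the levels of the genotypes were close, but 1 WT cell held 4757 of the 8461 UMIs. In other GFP- cells the ratio was 0.79.

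Among genes that met the naming rule, the lowest ratio was that of Cyp51, the lanosterol demethylase of cholesterol synthesis. It stood at 99.8, 21.3, 61.7 and 27.4 CPM and had a UMI in 26, 15, 9 and 12 cells. Its log2 ratio in GFP+ was -2.23 (-3.00 to -1.52), and -2.58 in unmixed cells. Both Sod1KO libraries lay below both WT libraries. In GFP- this rests on 15 and 21 UMIs, and the intervals overlap, at 34.5 to 102 and 17.0 to 41.9 CPM. The ratio of the other GFP+ cells was smaller in size, at -0.39.

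A further 4 of the 10 lowest had the same order in both sorts with all cells. Rcan1, a regulator of calcineurin, stood at 56.7, 24.3, 82.3 and 31.3 CPM, a ratio of -1.22 (-1.996 to -0.48) in GFP+, and Pgm2, a phosphoglucomutase, at 46.8, 19.3, 61.7 and 20.9 CPM, a ratio of -1.28 (-2.16 to -0.45). Ltv1, a ribosome assembly factor, had a ratio of -1.503 (-2.39 to -0.67), but in unmixed GFP- cells it stood at 27.2 CPM in WT and 45.4 CPM in Sod1KO. The predicted gene Gm8797 had -1.60 (-1.89 to -1.31), beside -0.93 in the other GFP+ cells. In 4 others the order of the GFP- libraries was the opposite of that in GFP+. Atg10, an autophagy enzyme, stood at 87.5, 27.4, 24.7 and 49.6 CPM, Socs1, a brake on cytokine signalling, at 67.8, 27.4, 24.7 and 56.2 CPM, and Hacd1, a fatty acid elongation enzyme of muscle, at 71.5, 30.4, 45.3 and 90.1 CPM. Ppp1r9b, the actin-binding spinophilin, stood at 61.6, 24.3, 20.6 and 35.3 CPM. For Hacd1, 1 cell held 40 of the 69 UMIs in Sod1KO GFP-, and in unmixed cells the GFP- order was that of GFP+, at 67.99 CPM in WT and 57.3 CPM in Sod1KO. The WT GFP- values rest on 14 cells.

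**Figure D3:**
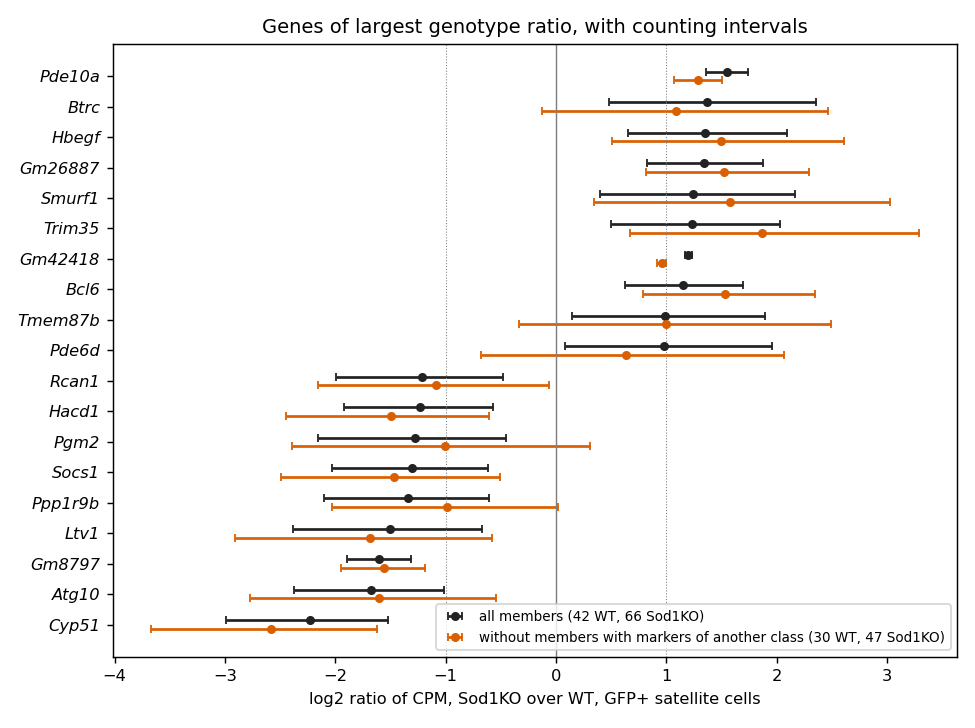
Log2 ratio of CPM (x axis), Sod1KO over WT, in GFP+ satellite cells for genes from the 10 highest and 10 lowest that met the naming rule, with 95% counting intervals, for all cells (black) and unmixed cells (orange). Dotted lines mark 2-fold; every ratio shown has the same sign in both sets.

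Gene lists of the biology of these cells stayed mostly within 2-fold between genotypes, as did most genes measured. Over all 5444 genes 2.55% were past 2-fold higher and 4.21% lower, 6.76% in all. Beside that share, a count of 0 on a list of this size is not read as a result about the list. The median of each list stands beside -0.11 for all genes, and 24 of the 34 list medians of both comparisons changed sign under at least 1 alternative, so they give no direction. Cells of both libraries were chosen on UMIs of the 6 choosing genes, so the ratios of those genes are no separate result. Of the 6, 0 were past 2-fold, with a median of 0.22, and of 17 further satellite cell genes 0 were, with a median of -0.12. Des was the lowest of these at -0.83 (-1.04 to -0.61) and Met the highest at 0.67 (0.02 to 1.35). Des stayed at -0.91 in unmixed cells.

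For the Notch pathway 0 of 8 measured genes were past 2-fold, with a median of 0.22; Notch2 was highest at 0.72 (0.32 to 1.13). Quiescence regulators had 0 of 11 past 2-fold and a median of 0.06, with Cdkn1c, the p57 cell cycle inhibitor, lowest at -0.94 (-1.64 to -0.26). Of the Wnt pathway 0 of 6 were past 2-fold. Its highest gene was Wnt4, a ligand that satellite cells are known to receive, at 35.7, 66.95, 28.8 and 101 CPM and a ratio of 0.91 (0.26 to 1.59). Both Sod1KO libraries were thus above both WT libraries in Wnt4.

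Commitment and fusion genes had 0 of 4 past 2-fold, with a median of -0.35. The cell cycle list had 0 of 6 and a median of -0.28, with its UMIs in few cells. Immediate early genes had 0 of 17 past 2-fold and a median of 0.33, which was -0.14 in unmixed cells. Dusp1, a MAP kinase phosphatase, was the highest at 0.64 (0.41 to 0.87), and -0.03 unmixed. Heat shock genes had 0 of 10 and a median of -0.10, or -0.49 in unmixed cells. Glucocorticoid and clock genes had 0 of 10 and a median of -0.19. Sgk1, a kinase induced by glucocorticoids, was the lowest of them at -0.61 (-0.95 to -0.28).

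Antioxidant genes, which bear on a loss of Sod1, had 0 of 20 measured genes past 2-fold higher and 1 lower, with a median of -0.16. The lower one was Gclc, the catalytic subunit that starts glutathione synthesis, at 75.2, 35.5, 69.9 and 45.7 CPM and a ratio of -1.08 (-1.73 to -0.46). The metallothioneins led the list. Mt1 stood at 3794, 2283, 5303 and 1972 CPM with a ratio of -0.73 (-0.81 to -0.65), and Mt2 at 1783, 1117, 2337 and 1015 CPM with -0.67 (-0.79 to -0.56). Both were lower in Sod1KO in each sort. In other cells Mt1 stood at 2430.5, 1383, 446 and 605 CPM, lower in Sod1KO in GFP+ and higher in GFP-. Sod2, the mitochondrial dismutase, had a ratio of -0.62 (-1.15 to -0.10). Slc7a11, the cystine transporter, was high in satellite cells at 529, 511, 489.6 and 504 CPM against 27.7, 36.7, 3.38 and 14.1 CPM in other cells, and its ratio between genotypes was -0.05 (-0.24 to 0.14). Of the p53 targets 0 of 7 were past 2-fold, with a median of 0.11.

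Receptors for growth factors and cytokines had 0 of 17 past 2-fold, with a median of -0.01. The lowest were Osmr, the oncostatin M receptor, at -0.80 (-1.33 to -0.28), and Lifr, the receptor of leukemia inhibitory factor, at -0.67 (-1.23 to -0.13). Genes of Spp1 and TGF-beta signalling had 0 of 9, with a median of -0.12, and Tgfb2 was lowest at -0.63 (-1.01 to -0.25).

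Of 24 matrix and adhesion genes 1 was higher and 2 were lower, with a median of -0.17. Col5a3, a chain of collagen V, which is known to act on Calcr in the niche, stood at 211, 78.1, 152 and 58.8 CPM. Its ratio was -1.43 (-1.84 to -1.04), and -1.47 in unmixed cells, and both Sod1KO libraries lay below both WT libraries. Lamb1, a laminin chain, had -1.09 (-1.72 to -0.47), but 1.01 in unmixed cells. Fn1, fibronectin, had 3.08 (2.68 to 3.51), but 251 of its 556 UMIs in Sod1KO GFP+ came from 1 cell.

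Of 10 denervation and synapse genes 1 was higher and 0 were lower, with a median of -0.10. Fbxo32, the ubiquitin ligase atrogin-1, stood at 16.02, 37.5, 24.7 and 39.2 CPM and had a ratio of 1.23 (0.28 to 2.26), on 6 and 9 cells in GFP+. Musk, the agrin receptor kinase, was lowest at -0.65 (-1.01 to -0.30), with 191, 122, 243 and 119 CPM. Runx1, a transcription factor induced by denervation in fibres, led the list at 606, 488, 428 and 475 CPM. Of 8 interferon and MHC class I genes 1 was higher and 0 were lower. It was Isg15, an interferon-induced ubiquitin-like protein, at 35.7, 72.02, 185 and 115 CPM and a ratio of 1.01 (0.37 to 1.69), found in 4 and 11 cells. Its order was the opposite in GFP- with all cells, but in unmixed cells Isg15 stood at 0 CPM in both WT libraries and at 5.98 and 19.1 CPM in Sod1KO.

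**Figure D4:**
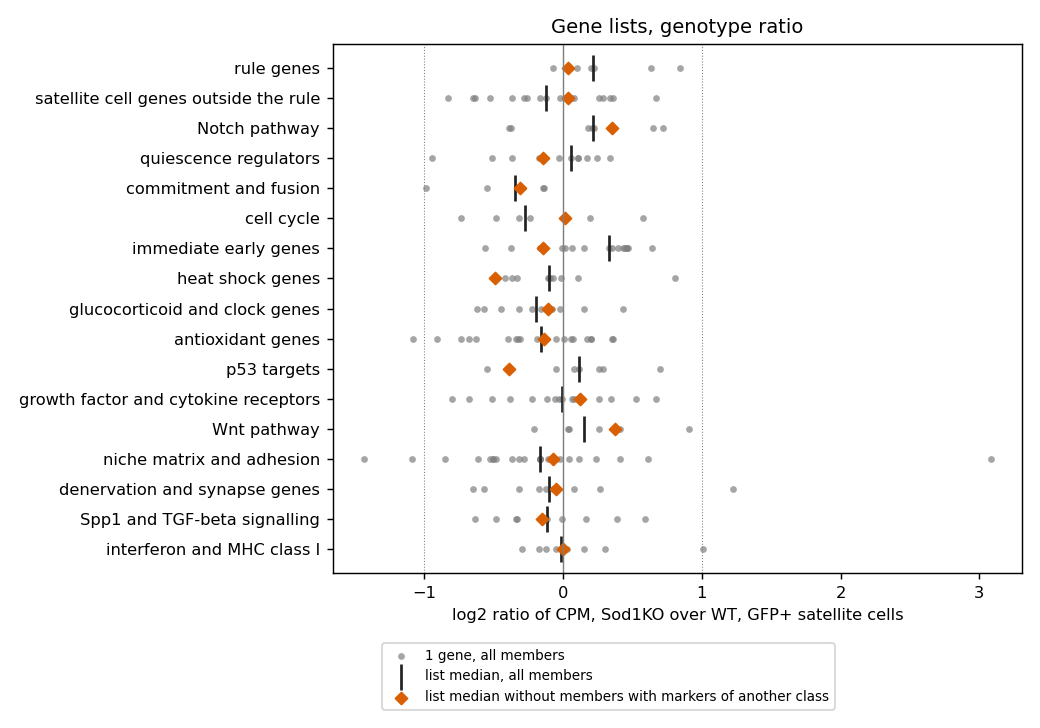
Log2 ratio of CPM (x axis), Sod1KO over WT, in GFP+ satellite cells, with 1 grey point a gene, a black bar for the median of each of 17 lists and an orange diamond for the median in unmixed cells. Dotted lines mark 2-fold, and 6 points lie beyond them.

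Markers of some other classes differed more between genotypes than the lists above. Tenocyte markers were past 2-fold higher in 4 of 4 measured genes and erythroid markers in 4 of 4, with median log2 ratios of 4.63 and 9.55, and mesenchymal markers in 4 of 6, with a median of 1.27. Their summed levels were 50.5 and 1436 CPM for tenocyte, 8.62 and 10694 CPM for erythroid, and 1705 and 3776 CPM for mesenchymal markers in WT and Sod1KO GFP+. In unmixed cells the same sums were 59.2 and 57.8, 10.3 and 25.9, and 864 and 765 CPM. Mixed cells were defined by these same markers, so the lower sums without them are no separate result. In Sod1KO GFP+, the cell of 111958 UMIs had 1.21% of its UMIs from tenocyte markers, and 2 cells of 31437 and 30942 UMIs had 22.4 and 11.1% of theirs from erythroid markers, so the tenocyte and erythroid sums came mostly from 3 cells.

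The sort comparison asked whether satellite cells taken as GFP+ differ from those taken as GFP-. It could be made in Sod1KO, with 66 GFP+ against 45 GFP- cells. Of 5168 genes, 358 (6.93%) were more than 2-fold higher in GFP+ and 338 (6.54%) more than 2-fold lower, 13.5% in all, with a median log2 ratio of 0.10. Without the largest cell of each library they were 138 and 106, and in unmixed cells, 47 against 35, 69 and 48 of 2851 genes. A large part of the counts was thus set by a few cells.

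The reporter is driven by the S100B promoter, and S100b itself was found in 6, 8, 0 and 1 cells. Only 0, 2, 0 and 0 of these were unmixed. Sox10, the Schwann cell transcription factor, was found in 7, 4, 0 and 0 cells, 1, 1, 0 and 0 of them unmixed. S100b was thus found in few GFP+ satellite cells. Both genes, and the myelinating markers that follow, are among those that define mixed cells. Their lower values in unmixed cells are therefore no separate result. Of the myelinating Schwann markers 4 of 4 measured were past 2-fold higher in GFP+, and their sum was 559 CPM in GFP+ and 95.3 CPM in GFP-, or 241 and 105 CPM in unmixed cells. Beside satellite cell genes this Schwann RNA moved with the sort, and its part in the other ratios was not tested.

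Mature fibre genes were past 2-fold lower in GFP+ in 14 of 14 measured, with a median of -8.18. Their sum was 151 CPM in GFP+ and 28031 CPM in GFP-. In unmixed cells it was 147 and 160 CPM, but these markers also define mixed cells. The largest Sod1KO GFP- cell had 13.6% of its 157012 UMIs from these genes, so the difference lay almost wholly in that cell.

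The naming rule set aside genes that 1 cell dominated in either Sod1KO library, with no such limit in WT. Among the 10 highest ratios that it left, Igfbp5, an IGF-binding protein, stood at 1399.7, 717, 757 and 231 CPM. Its log2 ratio of GFP+ over GFP- in Sod1KO was 1.63 (1.39 to 1.88), and 2.31 in unmixed cells, and WT GFP+ also lay above WT GFP-. Spred1, an inhibitor of Ras signalling, stood at 184, 213, 78.2 and 77.05 CPM, with a ratio of 1.47 (1.04 to 1.91), and Ptprz1, a receptor phosphatase also made by glia, at 339, 193, 156 and 70.5 CPM, with 1.45 (1.01 to 1.91). Pmp22, a myelin protein, had 1.55 (1.13 to 1.98), and 1.05 in unmixed cells. With all cells, both GFP+ libraries were above both GFP- libraries for Spred1, Ptprz1 and Pmp22. In unmixed cells this held for Spred1 and Pmp22, but Ptprz1 stood at 144 CPM in WT GFP+ and 224 CPM in WT GFP-. The order was not particular to satellite cells. In other cells Igfbp5 stood at 1284, 963, 409 and 651 CPM and Pmp22 at 1250.5, 747, 109 and 139 CPM. Ptprz1 stood there at 111, 131, 0.242 and 1.61 CPM and Spred1 at 85.3, 98.7, 71.2 and 81.7 CPM.

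Cdkn2c, the p18 cell cycle inhibitor, had a ratio of 2.01 (1.02 to 3.16), Trim33, a ligase of SMAD signalling, 1.70 (0.90 to 2.59), and Bok, a BCL2 family protein, 1.44 (0.71 to 2.24). In WT, Cdkn2c and Trim33 did not follow, at 39.4 and 80.1 CPM in GFP+ and 41.1 and 82.3 CPM in GFP-. The others among the 10 highest were Rab43, Fam114a1 and Tst, with ratios from 1.43 to 1.71.

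Of the 10 lowest, Tek, the angiopoietin receptor, stood at 64.1, 46.7, 103 and 107 CPM, a ratio of -1.20 (-1.75 to -0.66), and Hsd11b1, which activates glucocorticoids, at 115, 87.2, 222 and 185 CPM, a ratio of -1.09 (-1.49 to -0.69). With all cells both were lower in GFP+ in each genotype. In unmixed WT cells Tek stood at 77.2 CPM in GFP+ and 0 CPM in GFP-, while Hsd11b1 stayed lower in GFP+. In other cells Tek was also lower in GFP+, at 29.6, 23.2, 146 and 130 CPM. Hsd11b1 stood there at 19.5, 22.4, 7.92 and 29.5 CPM. Pdk4, the pyruvate dehydrogenase kinase raised in fasting, had -1.30 (-1.74 to -0.87), Ret, the receptor kinase for GDNF family ligands, -1.23 (-2.05 to -0.44), and Tppp3, a tubulin-binding protein, -1.22 (-1.71 to -0.75). In WT Pdk4 and Ret were not lower in GFP+, at 122 and 49.4 CPM and at 52.98 and 32.9 CPM. Tppp3 stood at 106 and 103 CPM in WT, and at 72.02 and 81.6 CPM in unmixed WT cells. The others were 2610020C07Rik, Lap3, 3110021N24Rik, Gk5 and Slc25a25, with ratios from -1.33 to -1.04.

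The counts of lists between the sorts stand beside 6.93% higher and 6.54% lower over all 5168 genes. Of the 6 choosing genes, whose levels are bound by the choice of cells, 0 were past 2-fold, with a median of 0.46. Of 16 further satellite cell genes 0 were higher and 1 lower. The lower one was Des at -1.40 (-1.61 to -1.20), which was 0.15 in unmixed cells. Quiescence regulators had 2 of 11 lower, Cdkn1c at -1.98 (-2.61 to -1.38) and Rb1, the retinoblastoma protein, at -1.03 (-1.63 to -0.44), and both stayed lower in unmixed cells, at -2.36 and -1.54. In WT neither was lower in GFP+, with Cdkn1c at 60.4 and 57.6 CPM and Rb1 at 46.8 and 20.6 CPM. Receptors had 3 of 16 higher, namely Tgfbr2 at 1.47 (0.83 to 2.16), Ptger4, a prostaglandin E2 receptor, at 1.41 (0.45 to 2.47) and Lifr at 1.14 (0.34 to 2.00). In unmixed cells they were 0.04, 2.61 and 1.55. Notch pathway genes had 0 of 8 past 2-fold and a median of 0.29.

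Other lists moved between the sorts with single cells. Of 19 antioxidant genes 2 were lower in GFP+, Gpx4, a lipid peroxidase, at -1.66 (-1.89 to -1.44) and Sod2 at -1.51 (-1.99 to -1.04). Without the largest cell of each library these ratios were -0.31 and -0.11. Of 24 matrix genes 4 were higher. Lama4, a laminin chain made by Schwann and endothelial cells, was at 2.11 (1.28 to 3.05), or 0.96 without the largest cell. Fn1 was at 3.47 (3.00 to 3.98), or 2.45. Top2a, a topoisomerase of dividing cells, had 58 UMIs in Sod1KO GFP+ and 1 in GFP-, and 42 of the 58 came from 1 cell.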

How the data were processed

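The deposited values were whole-number UMI counts per gene and barcode, 1 matrix for each of 4 libraries, which the authors made with Cell Ranger 7.1.0 and the mm10 build, per the labels. The kit reads 3′ ends and no replicate libraries were used here.

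Barcodes that held over 200 genes and under 10% of UMIs from mitochondrial genes were kept, and satellite cells were taken as those with at least 3 of 6 genes detected. UMIs were summed over the satellite cells of a library. CPM has exact Poisson, shares Clopper-Pearson and ratios conditional binomial 95% intervals, which cover counting error only, since cells of 1 library are not replicates. Zeros in a ratio were set to a floor of 3 UMIs. With 1 library per group no test was run and no p-value is given. Ratios needed at least 20 satellite cells in both libraries, and a gene was measured with at least 50 UMIs over both. The named genes of a comparison were the 10 highest and 10 lowest log2 ratios among measured genes that met a naming rule. Such a gene was found in at least 10% of the cells of the library with the higher CPM. In neither of the compared libraries did a cell hold over 20% of its UMIs. Each list is named by its leading gene and up to 4 largest ratios. The 20 top genes over other cells needed detection in at least 20% of satellite cells of each library with 20 or more. Satellite cells, gene lists and rules were chosen with earlier results of these data known. Doublets were scored and kept in the main values, with their removal as an alternative. Cells were thinned to 2000 UMIs to compare detection. Poisson counts were simulated for 7010 genes in the comparison of genotypes. Of 100 genes changed by 2 on the log2 scale, 88 reached the UMI minimum, and those 88 were past 2-fold. Among 5233 measured unchanged genes 0.2866% were past 2-fold. The simulation had no spread between cells, so it gives no rate for the real counts, in which single cells weighed heavily. Alternatives changed the number of genes needed, cell filters, doublets, scaling, ambient RNA, the UMI minimum and the largest cell. Python 3.11.15, scanpy 1.11.5, numpy 2.4.6 and scipy 1.17.1 were used. Some genes that met the naming rule are not reported here.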

Additional observations from a re-analysis of the deposited data

How the results depend on the processing

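The 20 named highest and lowest ratios of each comparison kept their sign under every alternative run. Of the 67 named ratios past 2-fold, list genes included, 9 took the other sign under at least 1 alternative, and 24 of 34 list medians did so as well, so no direction is read from a list median. In unmixed cells the genotype ratio of Lamb1 was 1.01, and the sort ratios were 0.15 for Des, 1.74 for Myl4, 0.25 for Sod2, 1.10 for Phlda3, -0.58 for Tgfb1 and 0.0018 for Bst2. With 4 choosing genes needed, the sort ratios were 0.0012 for Myf6, 0.16 for Myl4, 0.094 for Ccng1 and 1.30 for Phlda3. By the mean of per-cell CPM they were 0.61 for Myl4, 0.43 for Phlda3 and -0.029 for Tgfb1, and without the satellite cell of most UMIs in each library, an alternative added after seeing the data, 0.22 for Myf6, 0.58 for Myl4 and 0.73 for Phlda3. Between genotypes in GFP+, 212 genes were past 2-fold higher when 2 of the choosing genes sufficed and 92 without the largest cells. They were 59 higher and 66 lower in unmixed cells, 430 and 482 at a minimum of 20 UMIs, and 1296 and 1118 with no minimum. Between sorts in Sod1KO, 118 genes were lower when 4 choosing genes were needed, 191 higher with doublets removed and 214 lower by the mean of per-cell CPM. They were 69 higher and 48 lower in unmixed cells, 847 and 639 at 20 UMIs, 1844 and 1330 with no minimum, and 138 and 106 without the largest cells. Lower minimums test more genes. For the others the cause was not tested. The shares of satellite cells after thinning were 0.338% (WT GFP+), 0.470% (Sod1KO GFP+) and 0.295% (Sod1KO GFP-). Unmixed cells alone made up 0.629 and 0.747% of the GFP+ libraries, WT first. No paired analysis was possible because each genotype and sort had 1 library. The 14 satellite cells of WT GFP- limit every statement on that library.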

Other observations

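Cyp51 had the lowest ratio between genotypes among genes that met the naming rule, and other enzymes of cholesterol synthesis were looked up after such values were seen, so what follows is a description of a list chosen on the data. In GFP+ satellite cells 13 of 14 enzymes looked up had a lower CPM in Sod1KO. Of the 6 with at least 50 UMIs over both libraries 5 were more than 2-fold lower. Cyp51 is counted in both. Over all 5444 genes measured, 3331 had a ratio below 0 and 4.21% were more than 2-fold lower. Of the fatty acid synthesis genes looked up with the enzymes, Scd1 had a log2 ratio of 0.39, Acaca 0.02, Scd2 -0.47 and Fasn -0.54. Hmgcs1, which makes HMG-CoA, stood at 123, 17.2, 61.7 and 49.6 CPM, Idi1, an isomerase of isoprenoid units, at 147, 34.5, 78.2 and 49.6 CPM, and Msmo1, a sterol oxidase, at 86.2, 16.2, 45.3 and 36.6 CPM. Both Sod1KO libraries were below both WT libraries for each of these 3 genes, which were named out of the 14. In WT GFP- they had 15, 19 and 11 UMIs, and the GFP- intervals of the genotypes overlap for each. For Hmgcs1 these were 34.5 to 102 CPM in WT and 35.1 to 68.1 CPM in Sod1KO.

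Summed over the 14 enzymes, satellite cells in the GFP+ sort held 764 (705 to 826) CPM in WT and 224 (196 to 256) CPM in Sod1KO. In the GFP- sort they held 601 (507 to 706) CPM in WT and 330.4 (291 to 374) CPM in Sod1KO. The median cell held 443, 147, 547 and 301 CPM, and the highest cell 8300.3, 1345, 2859 and 1804 CPM, so the ranges overlap widely. Without the cell with the most UMIs of these genes in each library the sums were 662, 211, 481 and 305 CPM, and in unmixed cells 929, 195, 823 and 416 CPM. In the other cells of the same libraries the sums lay closer together, at 470.4, 377, 219.5 and 203 CPM. Srebf2, a factor that drives these enzymes, stood at 152, 112, 202 and 111 CPM. Sod1KO lay below WT in both sorts, but this rests on 1 library per group and was not tested.

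Among the other cells of both GFP+ libraries, Megf10, an engulfment receptor of satellite cells and glia, was also found outside the cells chosen here. Other cells without tenocyte markers held 70.0 and 67.5% of its UMIs in WT and Sod1KO GFP+, and 5.77 and 25.0% in WT and Sod1KO GFP-, while satellite cells stood at 171, 143, 139.9 and 120.1 CPM.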
